A study of Mus musculus with 20 samples.

Results

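The enzymes described here make, activate or inactivate androgens inside a cell. Androgens are steroids built from cholesterol. Cyp11a1 starts that synthesis by cleaving the cholesterol side chain, with electrons from a ferredoxin, whereas the P450 enzymes of the endoplasmic reticulum, Cyp17a1 among them, receive theirs from Por. Members of the 17beta-hydroxysteroid dehydrogenase family interconvert weak 17-keto steroids and potent 17beta-hydroxy steroids such as testosterone, each preferring one direction, and several of them work mainly on fatty acids. The 5alpha-reductases turn testosterone into dihydrotestosterone, steroid sulfatase (Sts) frees steroids from their sulfate stores, and Hsd11b1 regenerates active glucocorticoid. In prostate cancer under anti-androgen treatment, local supply of this kind is a long-discussed route by which tumor cells maintain androgen signaling.

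The 10 enzymes were chosen by name. Hsd17b11 was chosen on its rise in enzalutamide-resistant tumors, and the other 9 for their place in local androgen supply. Of these 10, 9 could be matched to a row of the deposited tables through their Entrez gene identifier, out of 17104 genes in the tables. Sts is named only. All 9 were listed in each of the 3 tables. They were Hsd17b11 (Entrez gene 114664), Hsd17b4 (15488), Hsd17b10 (15108), Hsd17b12 (56348), Srd5a1 (78925), Srd5a3 (57357), Cyp11a1 (13070), Por (18984) and Hsd11b1 (15483).

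RNA came from MycCaP-Bo cells, a bone-homing derivative of the Myc-driven mouse prostate cancer line MycCaP that carries luciferase and the near-infrared protein iRFP. The cells had been injected into the heart of FVB/N males at 4 to 6 weeks of age, and the CD45- iRFP+ fraction of the resulting bone metastases was sorted, pooling 3 mice for each library. There were 5 libraries for each of 4 groups. The naive group received vehicle, the Resist group enzalutamide (an anti-androgen) at 30 mg/kg for 18 days, the Resist-Mac group the same plus clodronate liposomes (1 mg per mouse), which kill phagocytes, in the last 4 days, and the Naive-Mac group vehicle plus 4 days of clodronate. All 4 groups therefore share 1 selected cell line. Naive and Resist libraries formed batch 1 and share a table. Resist-Mac formed batch 2 and Naive-Mac batch 3, each with a table of its own, so that depletion and batch cannot be told apart. Nor can enzalutamide and batch between Resist-Mac and Naive-Mac. Column labels within these groups hold further codes, shared by Resist-Mac replicates 2 and 3, by Resist-Mac replicates 4 and 5, and by Naive-Mac replicates 1 and 4. Their meaning is not given, and differences between libraries with different codes were not tested.

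Values are FPKM, read fragments scaled by transcript length and by the size of the library, so levels of different genes can be set side by side per length. The files give no read counts, and the depth behind each value is unknown. Libraries held 12087 to 14056 genes above 0. Transcripts shorter than 1 kb took 18.5% to 21.2% of the summed FPKM in naive and Resist libraries, 21.8% to 27.2% in Resist-Mac and 30.6% to 36.3% in Naive-Mac. Of the prostate epithelial markers examined, Krt8, Foxa1 and Hoxb13 had a mean of at least 1 FPKM in every group, while Krt18, Epcam, Cdh1 and Tmprss2 were at or near 0 where listed. Summed neutrophil markers ran from 61.4 to 1268 FPKM across naive and Resist libraries, and from 58.6 to 8769 in the depleted groups. All 9 neutrophil markers and all 10 macrophage markers were listed in each group and none was at 0 throughout a group. The summed macrophage markers had a median of 31.0 FPKM in naive, 20.8 in Resist, 195 in Resist-Mac and 249 in Naive-Mac libraries. On average Lyz2 made up most of that sum, with means of 38.1, 21.1, 304 and 223 FPKM in the same order. No other macrophage marker averaged above 2.37 FPKM in any group, so the sum describes mainly Lyz2. In such bulk samples, fewer cells of a type and less RNA per cell cannot be told apart.

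A gene was tested when its mean was at least 1 FPKM over the libraries compared, with limma on log2(FPKM + 1), and was called when its adjusted p over all genes tested was under 0.05 and its change exceeded 1.5-fold. Fold changes on this scale understate changes of genes with low values. An exact two-sided permutation test of mean FPKM was run beside it; with 5 libraries against 5 the smallest p it can give is 0.00794.

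Hsd17b11 and Hsd17b12 were the enzymes whose naive and Resist libraries did not overlap, Hsd17b11 being higher and Hsd17b12 lower in Resist. The 250 bases upstream of the RefSeq start of each gene are shown because their levels separated in opposite directions. Both windows lie on the minus strand of GRCm38.p6, a later build than the mm9 named in the submitters' processing notes, and were matched by symbol. Hsd17b11 occupies chr5:104021797-104022046 and Hsd17b12 chr2:94157910-94158159. Capitals mark CCAAT boxes (CCAAT or ATTGG) and GC boxes (GGGCGG or CCGCCC), searched on both strands.
Hsd17b11: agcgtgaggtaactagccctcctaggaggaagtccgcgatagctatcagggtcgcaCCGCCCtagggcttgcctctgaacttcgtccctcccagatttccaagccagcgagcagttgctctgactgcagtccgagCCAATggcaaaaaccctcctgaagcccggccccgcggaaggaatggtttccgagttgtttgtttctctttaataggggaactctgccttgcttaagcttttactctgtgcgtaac
Hsd17b12: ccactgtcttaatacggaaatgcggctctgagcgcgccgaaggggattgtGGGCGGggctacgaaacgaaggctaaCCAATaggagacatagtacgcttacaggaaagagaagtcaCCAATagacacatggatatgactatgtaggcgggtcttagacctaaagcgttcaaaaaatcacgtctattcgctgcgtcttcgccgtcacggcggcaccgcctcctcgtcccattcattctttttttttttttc
The Hsd17b11 window held 1 CCAAT box and 1 GC box, and that of Hsd17b12 held 2 CCAAT boxes and 1 GC box. Of 32851 RefSeq promoter windows of the same 250 bases, 33.8% held a CCAAT box and 32.7% a GC box. The steroid response element half-site (AGAACA or TGTTCT) occurred in 16.1% of all windows, and in none of the windows available for 8 of the 10 enzymes. TATAAA (or TTTATA), held by 12.4% of all windows, was absent from both sequences, as was the Myc E-box CACGTG, held by 6.02%. These matches are a description of letters in a window and not of binding.

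Hsd17b11, a lipid droplet enzyme that oxidizes 17beta-hydroxy steroids such as androstanediol, was the enzyme chosen for its rise in Resist. In the 5 naive libraries it stood at 99.1, 105, 90.6, 99.8 and 111 FPKM. In the Resist libraries it stood at 302, 311, 247, 252 and 224 FPKM. The lowest Resist library was thus above the highest naive one. Mean levels were 101 ± 7.55 FPKM in naive and 267 ± 37.5 in Resist (SD, n = 5), a 2.64-fold difference and a log2 change of 1.39 (SE 0.09). This ranked 74 of 10119 genes tested, counted from the largest rise. Since Hsd17b11 was chosen on this contrast, the values are a description and no test is given. Over 21 alternative settings the log2 change ran from 1.33 to 1.45.

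**Figure D1:**
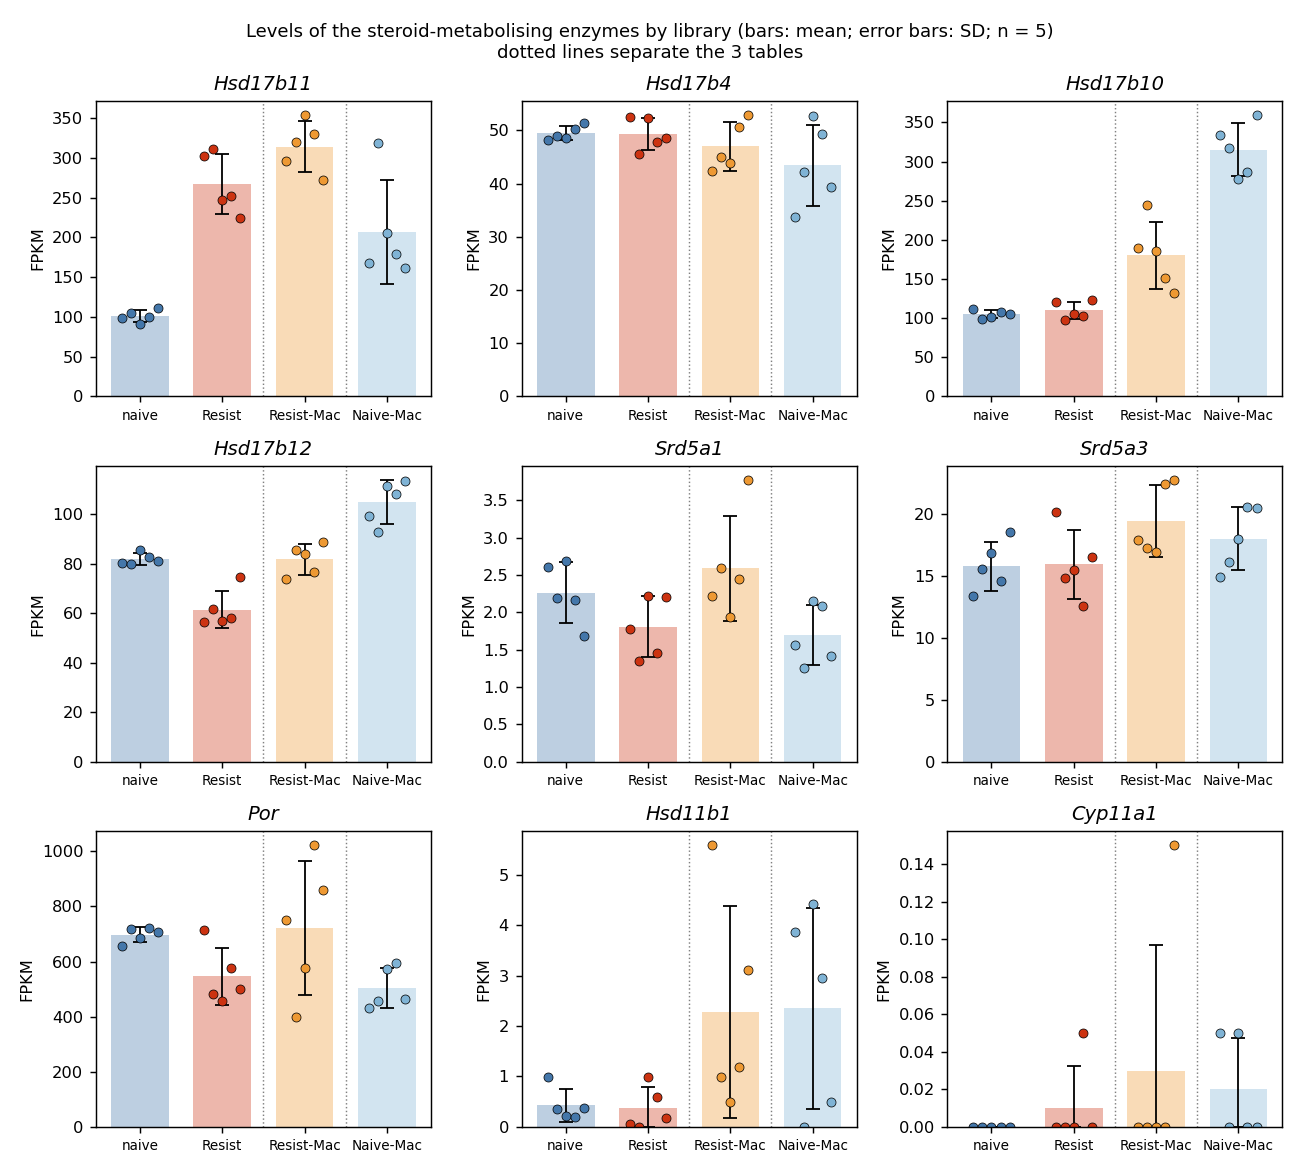
FPKM of the 9 matched enzymes in every library. Bars are group means, error bars are SD (n = 5, not drawn below 0), points are libraries, and dotted lines separate the 3 tables. All Resist points of Hsd17b11 (224 to 311 FPKM) lie above all naive points (90.6 to 111), and those of Hsd17b12 (56.3 to 74.5) lie below the naive ones (79.7 to 85.6).

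The depleted groups played no part in choosing Hsd17b11. Resist-Mac libraries had 296, 320, 354, 330 and 272 FPKM, with a mean of 314 ± 31.6. Naive-Mac libraries had 168, 319, 206, 180 and 161 FPKM, with a mean of 207 ± 65.0. In FPKM, all Resist-Mac libraries lay nearer to the Resist mean than to the naive mean. Of the Naive-Mac libraries, 3 of 5 (168, 180 and 161 FPKM) lay nearer to the naive mean. The count depends on the scale, and on a log2 scale fewer Naive-Mac libraries lie nearer to the naive mean. Both means hold the values by which Hsd17b11 was chosen, so these distances are a description and support nothing. Of the 5 Naive-Mac libraries, 4 lay below every Resist-Mac library, and replicate 2, at 319 FPKM, lay among them. Hsd17b11 was higher in Resist-Mac than in Naive-Mac by a log2 difference of 0.64, with SE 0.17 (limma adjusted p = 0.00411). This ranked 3478 of 9760 genes tested, counted from the largest rise. Over all genes tested the median log2 change was 0.34, and 46.2% were called in either direction. Enzalutamide and batch cannot be told apart between these groups. An exact permutation test of the Hsd17b11 means gave p = 0.0238, or 0.0534 adjusted over all genes. The call was lost with median-ratio scaling (log2 change 0.18, limma adjusted p = 0.380). It was also lost without Naive-Mac replicate 1 (0.58) or replicate 5 (0.57), where the fold fell just under 1.5 and the limma adjusted p stayed at 0.0130 and 0.0134. It was likewise lost when a noise probability replaced the limma test (0.60). Without Naive-Mac replicate 2 the change was 0.81.

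The comparisons of depleted with undepleted groups draw on the naive or Resist values by which Hsd17b11 was chosen, and are given as a description with no test. Between Resist and Resist-Mac the log2 change was -0.24. The sign turned with quantile normalization (0.27), with rescaling over the genes shared by all tables (0.23) and with correction for transcript length and GC (0.08). Naive libraries were lower than Naive-Mac libraries without overlap, at a log2 change of -0.98 with SE 0.16. The change was -0.43 with quantile normalization, -0.13 with rescaling and -0.50 with length and GC correction.

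Per length, Hsd17b11 moved from a level close to that of Hsd17b12 to several times that level. The ratio of Hsd17b11 to Hsd17b12 was 1.24 ± 0.119 in naive and 4.42 ± 0.909 in Resist (SD, n = 5). It was 3.87 ± 0.505 in Resist-Mac and 2.01 ± 0.814 in Naive-Mac. Against Hsd17b4, which was steady between naive and Resist, the ratio was 2.04 ± 0.121 in naive, 5.44 ± 0.899 in Resist, 6.76 ± 1.07 in Resist-Mac and 4.84 ± 1.60 in Naive-Mac. A ratio within a library does not depend on a factor common to all its genes. It can still depend on shifts that differ between genes, such as those with transcript length across tables described below. The longest annotated transcripts have 2234 (Hsd17b11), 1902 (Hsd17b12) and 2684 (Hsd17b4) bases. The ratios were not corrected for length.

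Hsd17b12, which acts on very long fatty acyl chains and can also reduce 17-keto steroids, had 80.3, 79.7, 85.6, 82.9 and 81.1 FPKM in naive libraries. Resist libraries had 56.3, 61.5, 56.8, 58.1 and 74.5 FPKM. Every Resist library was below every naive one. Means were 81.9 ± 2.39 and 61.5 ± 7.59 FPKM, a log2 change of -0.42, with SE 0.08 (limma adjusted p = 0.00354) that stayed under the 1.5-fold threshold, so the gene was not called. The exact permutation p was the smallest possible, 0.00794, or 0.0880 adjusted over all genes. Across alternatives the change ran from -0.49 to -0.36. Resist-Mac libraries averaged 81.7 ± 6.35 FPKM and Naive-Mac libraries 105 ± 8.80. Its changes in the comparisons across tables were -0.41, -0.35 and -0.36 for Resist vs. Resist-Mac, Naive vs. Naive-Mac and Resist-Mac vs. Naive-Mac, none of them called, and each turned positive with rescaling over shared genes (0.05, 0.50 and 0.09). With median-ratio scaling the latter 2 were called, at -0.67 (limma adjusted p = 2.03e-05) and -0.81 (limma adjusted p = 9.39e-05).

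Hsd17b4, the peroxisomal multifunctional enzyme that oxidizes fatty acids and can inactivate estradiol, was the steadiest enzyme between naive and Resist tumors. Naive libraries spanned 48.1 to 51.3 FPKM with a mean of 49.5 ± 1.32, and Resist libraries 45.6 to 52.5 with a mean of 49.4 ± 2.98. The log2 difference was -0.0046 with a 95% confidence interval of -0.13 to 0.12 (limma adjusted p = 0.964), a range that lies within 1.5-fold in either direction. Resist-Mac libraries averaged 47.0 ± 4.57 and Naive-Mac libraries 43.5 ± 7.61 FPKM, and no comparison called it in the deposited FPKM. With rescaling it was called higher in naive than in Naive-Mac (log2 change 1.05), so its steadiness across tables rests on the scale.

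Hsd17b10, a mitochondrial dehydrogenase of branched-chain fatty acids and steroids that is also a subunit of mitochondrial RNase P, did not separate naive from Resist. Its levels were 112, 99.1, 101, 108 and 106 FPKM in naive libraries and 120, 97.7, 106, 103 and 123 in Resist libraries. The log2 change was 0.06 (95% confidence interval -0.10 to 0.22, limma adjusted p = 0.589). The depleted groups were higher, at 189, 244, 185, 152 and 132 FPKM in Resist-Mac and 334, 317, 277, 287 and 360 in Naive-Mac. No Resist library overlapped Resist-Mac, and no Naive-Mac library overlapped another group. The log2 changes were -0.69 (limma adjusted p = 0.00267) for Resist vs. Resist-Mac, -1.57 (limma adjusted p = 1.92e-09) for Naive vs. Naive-Mac and -0.82 (limma adjusted p = 0.000337) for Resist-Mac vs. Naive-Mac, all called.

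Over all genes, changes across tables moved with transcript length, and Hsd17b10 is short. Its longest annotated transcript has 1001 bases, against a median of 3306.5 over 13850 genes in all tables. Over all genes tested, Spearman's rho between log2 change and transcript length was 0.64 for Resist vs. Resist-Mac, 0.71 for Naive vs. Naive-Mac and 0.61 for Resist-Mac vs. Naive-Mac, against 0.16 for Resist vs. Naive, as a description across genes. With length and GC correction the 3 Hsd17b10 changes were -0.06, -0.52 and -0.36, each under 1.5-fold and not called, with limma adjusted p = 0.775, 4.08e-05 and 0.0505. With rescaling they were -0.22, -0.72 and -0.38, of which only the change between naive and Naive-Mac was called. Without Resist-Mac replicate 2, its highest Resist-Mac library, the change against Resist was -0.57 and fell under the 1.5-fold threshold.

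**Figure D2:**
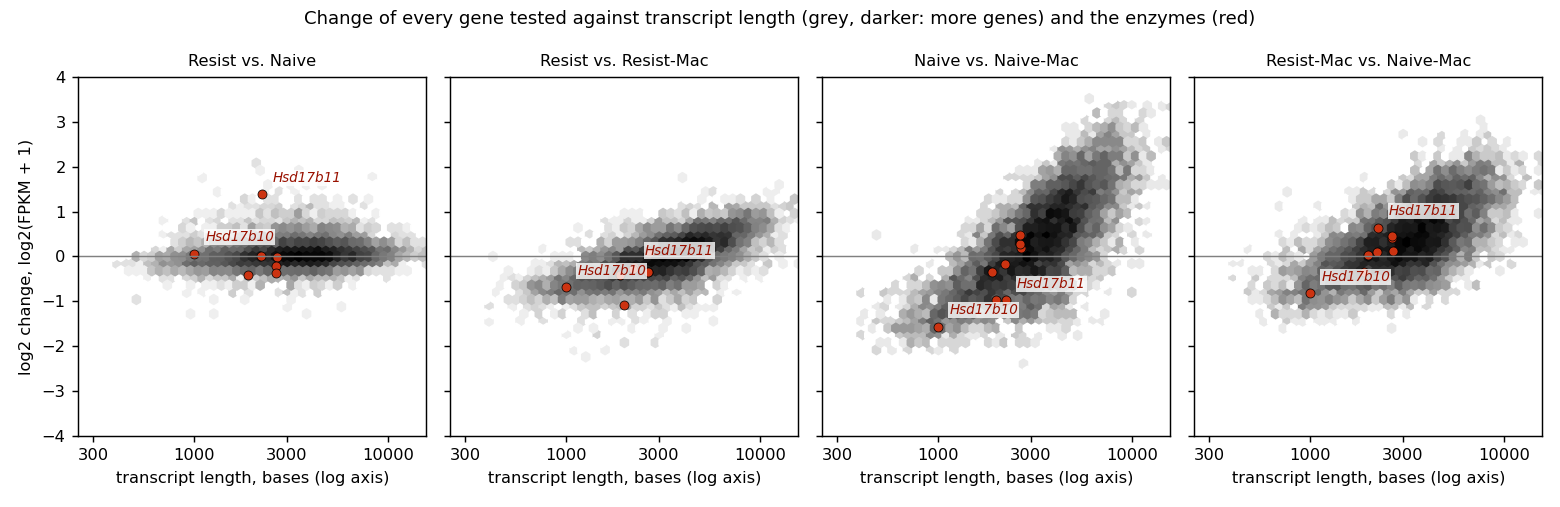
Log2 change of every gene tested (grey, darker for more genes) against transcript length on a log axis, with the tested enzymes in red, for each comparison. The grey cloud rises with length in the 3 comparisons across tables (rho 0.61 to 0.71) and Hsd17b10, with 1001 bases, lies at its short end, whereas Hsd17b11 stands above a nearly flat cloud in Resist vs. Naive.

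The 5alpha-reductase family stood at lower levels and was called in no comparison of the deposited FPKM. Srd5a1, the isoenzyme that reduces testosterone to dihydrotestosterone in many tissues, had 2.61, 2.19, 2.68, 2.16 and 1.68 FPKM in naive libraries and 1.78, 1.35, 2.22, 1.46 and 2.21 in Resist libraries. The groups overlapped (log2 change -0.22, 95% confidence interval -0.51 to 0.06, limma adjusted p = 0.249). Srd5a1 averaged 2.59 ± 0.705 FPKM in Resist-Mac and 1.69 ± 0.405 in Naive-Mac. Srd5a3, a polyprenol reductase needed for N-glycosylation that was named for its likeness to the steroid reductases, averaged 15.8 ± 2.00 in naive, 15.9 ± 2.79 in Resist, 19.4 ± 2.89 in Resist-Mac and 18.0 ± 2.55 FPKM in Naive-Mac. Its libraries spanned 12.6 to 22.7 FPKM with overlap between all groups, and its Resist vs. Naive log2 difference was 0.01 (95% confidence interval -0.25 to 0.26, limma adjusted p = 0.975). With rescaling Srd5a3 turned from -0.18 to 0.65 in Naive vs. Naive-Mac and was called (limma adjusted p = 0.000840). Srd5a1 was also called with rescaling, at 0.94 in Naive vs. Naive-Mac (limma adjusted p = 0.000101). In Resist-Mac vs. Naive-Mac its rescaled change was 0.76, likewise called (limma adjusted p = 0.00555).

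Por, cytochrome P450 oxidoreductase, had the highest level of the set in every group. Naive libraries had 655, 719, 686, 722 and 706 FPKM, and Resist libraries 714, 483, 455, 577 and 500. Of the 5 Resist libraries, 4 lay below all naive ones, and replicate 1 lay among them. Means were 698 ± 27.7 and 546 ± 104 FPKM, a log2 change of -0.37, with SE 0.11 (limma adjusted p = 0.0299) that was under 1.5-fold and not called. The exact permutation p was 0.0317, or 0.169 adjusted over all genes. Resist-Mac libraries had 752, 397, 578, 1022 and 861 FPKM and spread more widely than the other groups, and Naive-Mac libraries had 432, 455, 572, 596 and 466. Por was not called in any comparison of the deposited FPKM, although naive libraries did not overlap Naive-Mac libraries (log2 change 0.48, limma adjusted p = 0.000345). That change was 0.16 with median-ratio scaling (limma adjusted p = 0.118), and 1.34 with rescaling and 1.39 with quantile normalization, both called. Resist-Mac vs. Naive-Mac, at 0.46, was called with the same 2 settings (0.91 in each).

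Cyp11a1, the side-chain cleavage enzyme, was listed at 0 in 16 of 20 libraries. The other values were 0.05 FPKM in Resist replicate 4, 0.15 in Resist-Mac replicate 5 and 0.05 in Naive-Mac replicates 1 and 3. It passed the filter in no comparison, and no fold is given.

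Hsd11b1, which regenerates cortisol or corticosterone from their inactive keto forms, was under 1 FPKM in every naive and Resist library. Naive libraries had 0.99, 0.35, 0.21, 0.20 and 0.37 FPKM and Resist libraries 0.06, 0, 0.99, 0.60 and 0.18. The exact permutation p for their difference was 0.841. Resist-Mac libraries had 5.59, 0.98, 0.50, 1.18 and 3.11 FPKM and Naive-Mac libraries 3.87, 0, 4.43, 2.95 and 0.50. Hsd11b1 passed the filter on low values only through the depleted groups, so its changes are a description and support nothing. The log2 change was -1.09 (SE 0.37) for Resist vs. Resist-Mac and -0.97 (SE 0.41) for Naive vs. Naive-Mac, both inside the criteria for a call. The groups overlapped in both comparisons, with exact permutation p = 0.0397 and 0.127. The first call was lost under 7 of 19 alternatives and the second under 12 of 20. Leaving out any of Resist replicates 1, 2 and 5, or Resist-Mac replicate 5, ended the first, with limma adjusted p from 0.0584 to 0.0701. Without Resist-Mac replicate 1 the gene fell below the filter and was not tested. Leaving out any of naive replicates 2 to 5, or Naive-Mac replicates 1, 3 and 4, ended the second, with limma adjusted p from 0.0706 to 0.115.

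Hsd11b1 was set beside markers of other cells. In 3 of 4 groups the 5 libraries stood in the same order by Hsd11b1 and by the sum of the 9 neutrophil markers, in 2 of 4 by the sum of the 10 macrophage markers, and in 0 of 4 by the sum of the 10 osteoblast and stroma markers. The macrophage sum consisted on average mostly of Lyz2. Resist-Mac replicate 1, highest in Hsd11b1 at 5.59 FPKM, also had the highest neutrophil sum, 8769 FPKM. Naive-Mac replicate 2, with Hsd11b1 listed at 0, had the lowest neutrophil sum, 58.6 FPKM, and a macrophage sum of 4.71. The part of these cells in the Hsd11b1 difference was not tested. Naive-Mac replicate 2 was also the highest Naive-Mac library in Hsd17b11 (319 FPKM), whereas its Hsd17b10 level of 317 FPKM was within the range of the other 4.

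**Figure D3:**
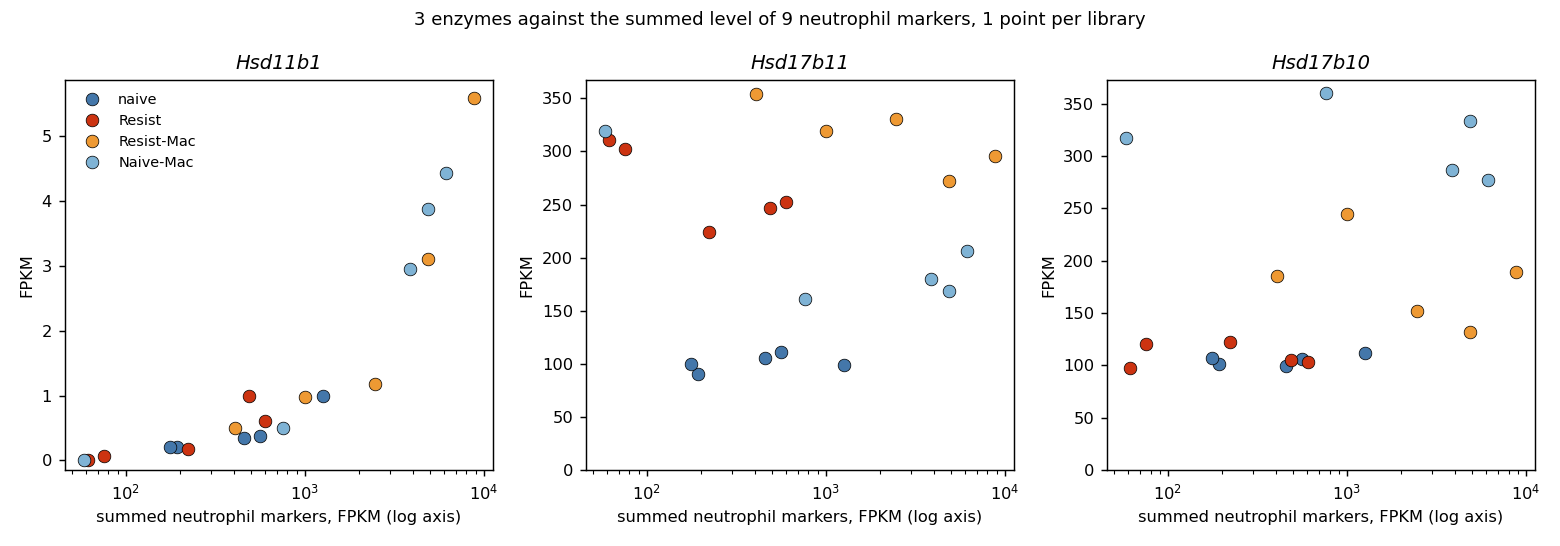
FPKM of Hsd11b1, Hsd17b11 and Hsd17b10 (y axes) against the sum of 9 neutrophil markers (x axis, log scale), with 1 point for each of 20 libraries. Hsd11b1 is near 0 at low marker sums and reaches 5.59 FPKM at the highest sum, 8769. Hsd17b10 is highest in Naive-Mac (277 to 360 FPKM) at low and high sums.

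Read over all enzymes, Resist vs. Naive tested 7 and called 1, Hsd17b11, where 6.35% of all genes tested were called. Of the 7, 2 (Hsd17b11 and Hsd17b12) had groups that did not overlap, where 12.8% of all genes did so. Hsd17b11 entered by the rule on this contrast, so nothing is read from these shares. Resist vs. Resist-Mac tested 8 and called 2 (Hsd17b10 and Hsd11b1, both lower in Resist) against 21.7% of all genes, with 1 of 8 not overlapping against 29.7%. Naive vs. Naive-Mac called 3 of 8 (Hsd17b11, Hsd17b10 and Hsd11b1, all lower in naive) against 59.7%, with 4 of 8 not overlapping against 66.0%. Nothing is read from the counts that hold Hsd11b1, which passed the filter only where it is high, or from those that set Hsd17b11 against the values by which it was chosen. Resist-Mac vs. Naive-Mac called 2 of 8, Hsd17b11 higher and Hsd17b10 lower, against 46.2%, with 2 of 8 not overlapping against 47.8%. The members' median log2 change was -0.0046, -0.35, -0.26 and 0.11 in these 4 comparisons, beside medians of 0.03, -0.02, 0.23 and 0.34 over all genes tested. Rescaling over shared genes moved the latter to 0.10, 0.41, 1.00 and 0.75, so levels of one gene across tables depend on the scale chosen.

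**Figure D4:**
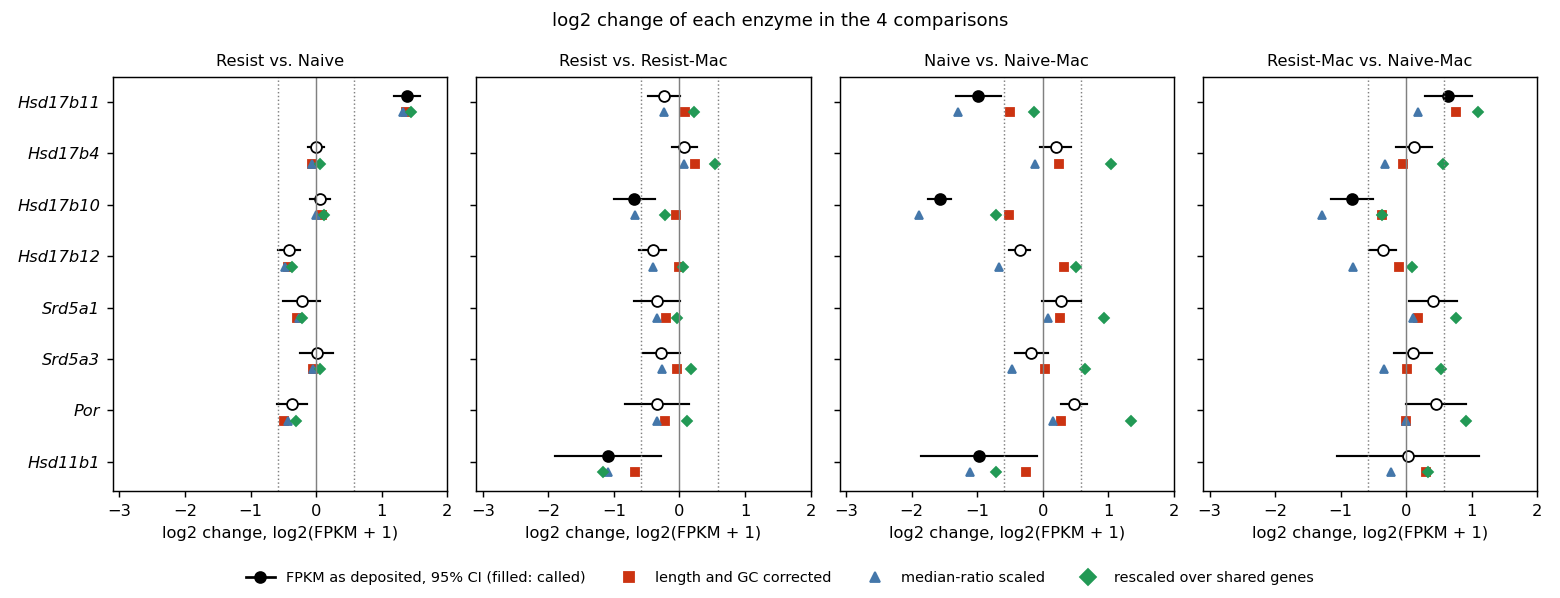
Log2 change of the 8 enzymes that passed the filter, by comparison. Black points and bars are the deposited FPKM with 95% confidence intervals (filled when called), colored symbols are the same change after length and GC correction, median-ratio scaling and rescaling over shared genes, and dotted lines mark 1.5-fold. Hsd17b11 keeps 1.33 to 1.45 under each scaling in Resist vs. Naive, while many symbols cross 0 in the comparisons across tables.

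Whether the change on depletion differed between resistant and naive tumors was tested as an interaction over 20 libraries, in which 51.9% of 9876 genes passed, and so did 4 of 8 enzymes. Nothing is read from this count. The 4 hold Hsd17b11, set against values by which it was chosen, and the 8 hold Hsd11b1, which passed the filter only where it is high. Hsd17b10 was lower than its depleted counterpart by less in Resist than in naive (difference of log2 changes 0.88, SE 0.17, limma adjusted p = 0.000219). Hsd17b10 passed, by adjusted p alone, under each of the alternatives run for this test. With length and GC correction its change was -0.06 in Resist vs. Resist-Mac and -0.52 in Naive vs. Naive-Mac. With rescaling these changes were -0.22 and -0.72. Both comparisons span separate batches, so batch and depletion cannot be told apart in the interaction. Por differed by -0.83 (SE 0.26, limma adjusted p = 0.0100) and Srd5a1 by -0.63 (SE 0.21, limma adjusted p = 0.0152), and neither passed with median-ratio scaling or with length and GC correction, nor did Srd5a1 with quantile normalization. The Hsd17b11 value, 0.74 (SE 0.20), contains the contrast on which the gene was chosen and is a description.

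The wider steroid pathway was followed in a list of 66 further genes, of which 45 were listed in the tables and 22 of those stayed under 1 FPKM on average in every group. Star, which carries cholesterol into mitochondria, averaged 0.62 FPKM in naive and 0.87 in Resist libraries, and Cyp17a1, which makes the androgen precursors, 0.02 and 0.05. The other listed genes of cholesterol delivery and cleavage varied in level. In naive libraries Tspo averaged 181 FPKM, Fdx1 85.5, Stard3 12.9, Stard4 6.85 and Fdxr 3.29. Hsd17b13, the closest relative of Hsd17b11, averaged at most 0.05 in any group. Of 21 pathway genes tested in Resist vs. Naive, 1 was called higher and 1 lower, beside 5.25% and 1.11% of all genes tested. The list's median log2 change was -0.04 beside 0.03 over all genes. The gene called higher, Ugt1a6a, passed the filter only through its Resist level, so nothing is read from that call.

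Ugt1a6a, a glucuronosyltransferase, rose from 0.75 ± 0.251 FPKM in naive (0.47 to 1.10) to 3.40 ± 1.04 in Resist (1.81 to 4.35), without overlap (log2 change 1.31, SE 0.18). Its naive mean is under 1 FPKM, so it passed the filter only through its Resist level. Its change and its call are therefore a description and support nothing. Genes of the Ugt1a cluster share exons, so reads could be split among them. Sult2b1, which sulfates cholesterol and related 3beta-hydroxy steroids, fell from 7.22 ± 1.49 to 3.73 ± 0.422 FPKM (log2 change -0.78, SE 0.13, limma adjusted p = 0.00212). A further 4 had a limma adjusted p under 0.05 with a change under 1.5-fold. Of these, Cyb5a, cytochrome b5 that boosts the lyase activity of Cyp17a1, had a log2 change of 0.53, and Tspo, an outer mitochondrial membrane protein that binds cholesterol, 0.39. Rdh11, a retinol dehydrogenase of the prostate, and Stard4, a cholesterol carrier, had -0.51 and -0.50.

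**Figure D5:**
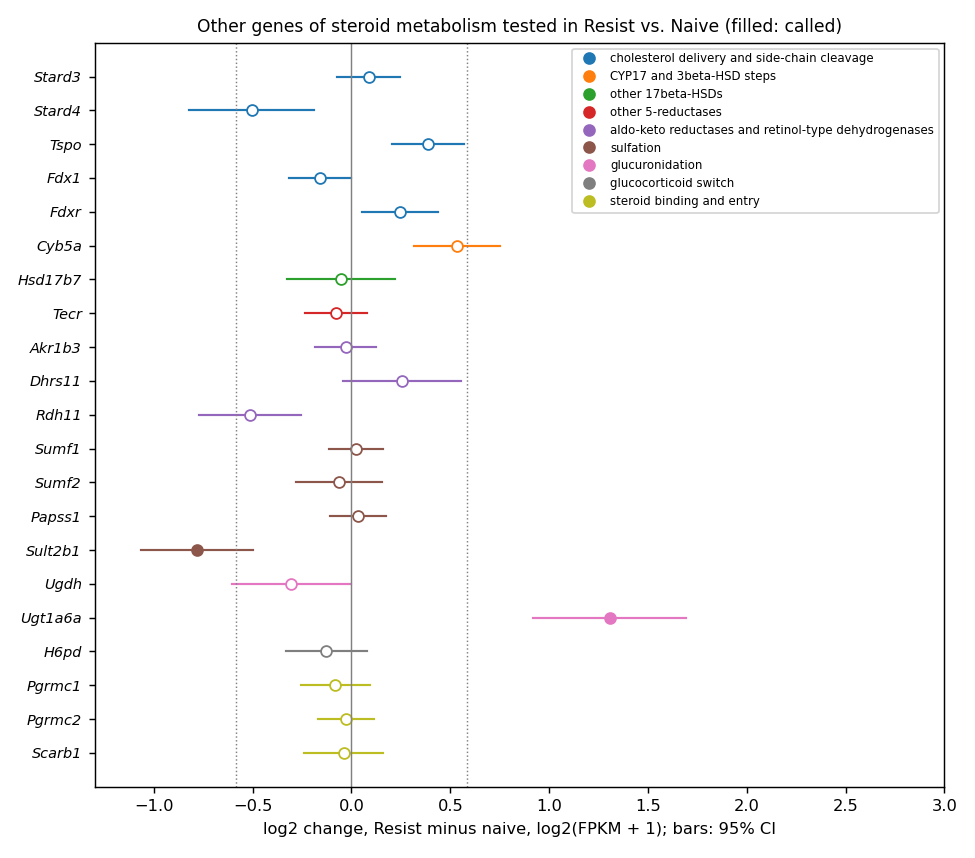
Log2 change, Resist minus naive, of the 21 further genes of steroid metabolism that were tested, colored by role, with 95% confidence intervals (filled when called). Ugt1a6a, which passed the filter only through its Resist level, is at 1.31, Sult2b1 lies below the lower 1.5-fold line, and the other 19 were not called.

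In the comparisons across tables the pathway list was mixed, with median log2 changes of -0.26, -0.18 and 0.09 beside -0.02, 0.23 and 0.34 over all genes. Resist vs. Resist-Mac called 0 of 23 higher and 4 lower, Naive vs. Naive-Mac 2 of 20 higher and 6 lower, and Resist-Mac vs. Naive-Mac 4 of 23 higher and 3 lower. The 4 genes lower in Resist than in Resist-Mac were Akr1b3, an aldose reductase (log2 change -1.05), Fdx1, the ferredoxin that feeds Cyp11a1 (-1.02), Tspo (-0.76) and Sumf2 (-0.72). Akr1b3 was also called with length and GC correction, with rescaling and with median-ratio scaling. Fdx1 lost its call with rescaling (-0.55). Tspo lost it with length and GC correction (-0.07, limma adjusted p = 0.684) and rescaling (-0.29), as did Sumf2 (-0.49, and -0.27 with limma adjusted p = 0.0809). Between naive and Naive-Mac the called gene with the largest change in each role was Tspo (-1.89), Cyb5a (-1.24), Dhrs11 (-0.78), H6pd, which supplies NADPH to Hsd11b1 (1.53), and Pgrmc1, a membrane protein that binds heme and progesterone (-0.97). With length and GC correction these were -0.93, -0.31, -0.08, 0.34 and -0.25, and Tspo alone of them was still called. With rescaling Cyb5a (-0.39), Dhrs11 (-0.06) and Pgrmc1 (-0.12) were not called. Between Resist-Mac and Naive-Mac the corresponding genes were Tspo (-0.75), Sult2b1 (-0.82), Ugt1a6a (1.63), H6pd (0.90, and -0.15 with length and GC correction) and Scarb1, a receptor for high-density lipoprotein (0.91). The Sult2b1 call was lost with rescaling (-0.44, limma adjusted p = 0.208), and that of Tspo with rescaling (-0.30) and with length and GC correction (-0.44). Those of H6pd (0.45) and Scarb1 (0.46) were lost with median-ratio scaling.

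Genes whose log2(FPKM + 1) closely followed Hsd17b11 over the 10 naive and Resist libraries were Nceh1 (Pearson's r = 0.988), Pla1a (0.981), Tspan9 (0.977) and Pcolce (0.975). These r values are a description over 2 separated groups of a single table, and a gene that separates those groups scores high. Nceh1, a cholesterol ester hydrolase, averaged 8.55 FPKM in naive, 16.9 in Resist, 15.1 in Resist-Mac and 9.41 in Naive-Mac. Pcolce, an enhancer of procollagen processing, averaged 49.9, 166, 153 and 88.6 FPKM in the same order. In Naive-Mac replicate 2, the library with the highest Hsd17b11 of that group, Nceh1 (15.3 FPKM) and Pcolce (137 FPKM) were also at their Naive-Mac maximum, whereas Tspan9 was not.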

How the data were processed

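Sorted MycCaP-Bo cells were profiled by poly(A)-selected, paired-end RNA sequencing on a BGISEQ-500, with 3 mice pooled per library and 5 libraries in each of 4 groups, so that SDs describe the spread between pools. Bowtie2 and mm9 are named in the submitters' processing notes; versions and the quantification tool are not given in the sources used here. The authors deposited FPKM in 2 tables and log2(FPKM + 1) in the third, which was returned to FPKM before use. Rows of transcripts without an Entrez identifier (752 in the naive and Resist table) were left out. Groups came from the sample titles, and genes were named from Entrez identifiers. The 10 enzymes, the pathway list and the marker lists were chosen with earlier results of these data known.

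A gene entered a comparison when it averaged 1 FPKM or more across the libraries of both groups, and limma 3.58.1 (R 4.3.3; empirical Bayes with trend) was fitted to log2(FPKM + 1). Calls needed a Benjamini-Hochberg adjusted p under 0.05 over all genes tested and a change over 1.5-fold. The difference between the depletion contrasts was fitted over all 20 libraries at the same adjusted p. Exact two-sided permutation tests of mean FPKM were run for every gene and adjusted over all of them. Alternatives were a pseudocount of 0.1, no filter, a filter at 5 FPKM, median-ratio scaling, quantile normalization, rescaling over the 13850 genes in all tables, a spline correction for transcript length and GC, limma without trend, a replicate block, 1 fit of all libraries, a noise probability over 0.8 modelled on NOISeq, and leaving out each library. Those run for the interaction, and for Hsd11b1 in Resist vs. Naive, were added after seeing the data. On simulated data with 200 changed genes the limma fit recovered 192 to 199 over the 4 comparisons, with 3 to 8 false calls. The planted changes were 1.5 log2 units, larger than the 1.5-fold threshold, and were set only in better-expressed genes. No effect of batch, table or transcript length was simulated, so recovery of smaller changes is not known from it. Longest transcripts of the matched enzymes had no processed pseudogene with at least 90% identity over 80% of its length (blastn 2.17.0, GENCODE M21).

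Genes named in the text were the enzymes, every pathway gene called in Resist vs. Naive, for each other comparison the called gene with the largest change in each role list, and those reported here of the 5 genes most correlated with Hsd17b11. Genes withheld from the text are not reported here and are left out of the pathway and marker lists. The 4 pathway genes with smaller changes, Tspo in Resist vs. Resist-Mac, Fdx1, Stard3, Stard4 and Fdxr in naive, Star, Cyp17a1 and Hsd17b13 were added after their values were seen. Promoter sequences are from RefSeq on GRCm38.p6.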

Additional observations from a re-analysis of the deposited data

Results flagged for a closer look

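Of 35 groups of 5 libraries examined among the enzymes, 5 held a library far from the other 4, where chance gives about 1.75. In Naive-Mac, Hsd17b11 was highest in replicate 2 at 319.11 FPKM, with the next library at 206. In Resist, Hsd17b12 was highest in replicate 5 at 74.52 FPKM, with the next at 61.5. Cyp11a1 was listed at 0.05 FPKM in 1 Resist library and at 0.15 FPKM in 1 Resist-Mac library, with the other 4 of each group at 0. A single value above 0 beside 4 at 0 is set apart whatever its size. The 5 groups are therefore not read as an excess over 1.75. In naive, Hsd11b1 was highest in replicate 1 at 0.99 FPKM, with the next at 0.37. That library also had the highest neutrophil marker sum of the naive group, 1268 FPKM.

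The difference from the macrophage-depleted group was unequal in Resist and in naive tumors for 4 of 8 enzymes, beside 51.9% of all genes. Nothing is read from this count, which holds Hsd17b11 and Hsd11b1. The difference of log2 changes was 0.74 for Hsd17b11 (a description), 0.88 for Hsd17b10 (limma adjusted p = 0.000219), -0.63 for Srd5a1 (limma adjusted p = 0.0152) and -0.83 for Por (limma adjusted p = 0.0100). Batch and depletion cannot be told apart in these values.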

How the results depend on the processing

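Of 643 recomputed log2 changes of single enzymes, 558 kept their direction and their side of the threshold, 34 lost a call, 10 gained one and 41 turned sign. Depth cannot be judged without read counts, Cyp11a1 and Hsd11b1 lie where a few reads decide a value, and levels across tables rest on the scale chosen. The cause of the shifts below was not tested.

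The number of genes called in Resist vs. Naive was 392 with a filter at 5 FPKM and 365 with the noise probability. In Resist vs. Resist-Mac it was 3830 with rescaling, 879 with length and GC correction and 1103 with the noise probability. In Naive vs. Naive-Mac the latter 2 settings gave 3561 and 3732, and in Resist-Mac vs. Naive-Mac 2560 and 1554. The number of enzymes called in Resist vs. Resist-Mac was 1 without a filter, with a filter at 5 FPKM, with quantile normalization, with rescaling and with the noise probability, 0 with length and GC correction, and 1 to 2 when single libraries were left out. In Naive vs. Naive-Mac it was 5 with rescaling and 0 with length and GC correction. In Resist-Mac vs. Naive-Mac it was 1 with length and GC correction or the noise probability and 1 to 3 when single libraries were left out.

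Of the values that turned sign, 1 was called after the turn (Srd5a3 in Naive vs. Naive-Mac with rescaling). In Resist vs. Naive, Hsd17b4 was 0.0285 with quantile normalization and 0.0534 with rescaling, and ran from -0.0270 to 0.0228 when libraries were left out. Srd5a3 was -0.0493 with median-ratio scaling, -0.0601 with quantile normalization and -0.0532 with length and GC correction, and ran from -0.0778 to 0.0831 when libraries were left out. The difference in mean FPKM of Hsd11b1 ran from -0.214 to 0.0835. In Resist vs. Resist-Mac, quantile normalization gave 0.27 for Hsd17b11 and 0.27 for Por, rescaling gave 0.23 for Hsd17b11, 0.0525 for Hsd17b12, 0.17 for Srd5a3 and 0.12 for Por, and length and GC correction gave 0.0812 for Hsd17b11. In Naive vs. Naive-Mac, median-ratio scaling gave -0.11 for Hsd17b4, quantile normalization gave 0.0635 for Hsd17b12 and -0.39 for Srd5a1, rescaling gave 0.50 for Hsd17b12 and 0.65 for Srd5a3, and length and GC correction gave 0.33 for Hsd17b12 and 0.0387 for Srd5a3. In Resist-Mac vs. Naive-Mac, median-ratio scaling gave -0.33 for Hsd17b4, -0.33 for Srd5a3, -0.0040 for Por and -0.24 for Hsd11b1. There, quantile normalization gave -0.35 for Srd5a1, -0.27 for Srd5a3 and -0.60 for Hsd11b1, length and GC correction gave -0.0426 for Hsd17b4, rescaling gave 0.0891 for Hsd17b12, and the noise fit gave -0.11 for Hsd11b1, which ran from -0.33 to 0.28 when libraries were left out.

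Replicate numbers did not mark shared deviations, with correlations of same-numbered libraries from -0.38 to 0.36. With a replicate block the genes called were 624, 2228, 5888 and 4534 in the 4 comparisons and the same enzymes were called.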
